A study of Homo sapiens with 14 samples.

Results

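The respiratory chain was followed here through the genes of its subunits, in the 2 genomes that encode them. Members were the gene rows named MT-ND, MT-CO, MT-CYB or MT-ATP, those named NDUFA, NDUFB, NDUFC, NDUFS or NDUFV with a number, SDHA to SDHD, UQCR, 11 COX symbols (COX4I1, COX5A, COX5B, COX6A1, COX6B1, COX6C, COX7A2, COX7A2L, COX7B, COX7C and COX8A) and ATP5. Of 16336 gene rows found in at least 1 of 3 tables, 106 matched, 102 in each of the 2 MV4;11 tables and 106 in the EOL-1 table. They fell into 13 mitochondrially encoded subunits (7 of complex I, 1 of complex III, 3 of complex IV and 2 of complex V), 75 nuclear members (36 of complex I, 4 of complex II, 8 of complex III, 12 of complex IV and 15 of complex V) and 18 other rows that carry a matching symbol. NDUFA4 was counted with complex IV, where its protein sits despite its name, and so was COX7A2L, which helps to join complexes III and IV. All 88 mitochondrially encoded and nuclear members passed the filter on low counts in every table.

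RNA was sequenced from 2 acute leukaemia lines, MV4;11 (myelomonocytic, with a KMT2A fusion) and EOL-1 (eosinophilic), in 7 groups of 2 libraries. All groups received 1 µg/ml doxycycline for 4 days, the controls included. In MV4;11, a short hairpin RNA against EZH2 (shEZH2) was set against a control labelled EV, and 2 guide RNAs against MYC (sgcMyc guide 1 and guide 5) against a control labelled sgEV. In EOL-1, a guide RNA against EZH2 (sgEZH2) was set against sgEV. EZH2 is the enzyme that places the repressive H3K27me3 mark, and MYC is a transcription factor of cell growth. Whether both libraries of a group stem from separate cultures is not in the labels; p-values therefore speak only of the spread among these libraries, and that spread may be technical.

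Complex I passes electrons from NADH and complex II from succinate to ubiquinone, complex III passes them on to cytochrome c and complex IV to oxygen. Complexes I, III and IV pump protons, and complex V, the ATP synthase, uses the gradient to make ATP. Mitochondrial DNA, transcribed as long precursors from both strands and cut apart around its tRNAs, encodes the core membrane subunits of complex I, cytochrome b, the catalytic centre of complex IV and subunits of the proton channel of complex V, while every other subunit, and all of complex II, is encoded in the nucleus and imported.

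MV4;11 libraries held 13313052 to 16274568 gene counts, those of EOL-1 24574102 to 30256823. Levels are given as CPM, counts scaled by TMM to a common library total of 1000000, and changes as log2 fold changes ± standard error (2 libraries a group) with Benjamini-Hochberg adjusted p-values of edgeR's quasi-likelihood test over all genes of a table, with a threshold of 0.05. EZH2 fell from 73.2 and 75.7 CPM to 9.74 and 9.69 CPM with shEZH2, and from 70.6 and 70.4 CPM to 27.7 and 26.1 CPM in EOL-1. Under the label sgcMyc the MYC transcript was no lower than in its control: it stood at 657 and 660.2 CPM with sgEV, 866 and 871 CPM with guide 1 and 818 and 822 CPM with guide 5. A guide RNA that directs a cut in DNA need not lower the transcript, so this checks neither the label nor the edit. Of 16 markers of the myeloid lines 11 had a row in MV4;11 and 10 in EOL-1, CSF1R, LYZ and MPO among them. The eosinophil markers IL5RA and EPX and the monocyte marker CD14 had no row. The eosinophil markers CCR3 and PRG2 had a row in MV4;11 but none in EOL-1, and PDGFRA had one in EOL-1 alone. The summed level of the markers with a row was 974 CPM in both EV libraries and 1141 to 1143 with shEZH2. It was 1177 to 1206 with sgEV, 4627 to 4649 with guide 1 and 4269 to 4334 with guide 5. In EOL-1 it was 546 to 551 with sgEV and 2078 to 2106 with sgEZH2. LYZ, the lysozyme gene, rose in each comparison, with log2 fold changes of 1.37 with shEZH2, 4.55 with guide 1, 4.44 with guide 5 and 3.05 in EOL-1. By gene, 2 of 9 tested were called higher and 4 lower with shEZH2 (FLT3, MPO and ITGAM among those that fell), 4 and 1 of 10 with guide 1, 2 and 1 of 10 with guide 5, and 6 and 0 of 10 in EOL-1. Of other cell types, 1 of 5 T and NK cell markers (NKG7, with no row for the CD3 genes), up to 3 of 4 B cell, up to 2 of 6 erythroid and megakaryocyte and up to 3 of 5 epithelial and stromal markers had a row. Of these CD79A was higher with shEZH2 (0.94) and in EOL-1 (1.08), with summed B cell markers of at most 7.69 CPM in any library. PECAM1, which was put in the epithelial and stromal list, was lower with shEZH2 (-0.61). It was higher with guide 1 (0.76), guide 5 (0.68) and in EOL-1 (0.83). KRT8 of the same list, an epithelial keratin, was lower with shEZH2 (-0.78), guide 1 (-1.29) and guide 5 (-0.87). Summed epithelial and stromal markers were 132 to 141 CPM with EV and 93.3 to 94.5 with shEZH2, 186 to 188 with sgEV, 312 to 313 with guide 1 and 287 to 304 with guide 5, and in EOL-1 9.46 to 9.79 with sgEV and 16.7 to 17.2 with sgEZH2. EPOR was lower with shEZH2 (-0.68) and in EOL-1 (-0.52), and higher with guide 1 (0.31). GP9, the other erythroid and megakaryocyte marker with a row in MV4;11, was lower with shEZH2 (-4.86). Neither was called with guide 5. The erythroid and megakaryocyte sum was 8.32 to 10.1 CPM with shEZH2 against 15.5 to 16.1 with EV. With guide 1 it was 18.6 to 18.7 CPM against 15.1 to 15.9 with sgEV. NKG7 was lower with shEZH2 (-0.45) and in EOL-1 (-0.23). The part of any of these markers in the results was not tested. In bulk RNA, fewer cells of a type and less RNA per cell cannot be told apart.

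In every MV4;11 library the 13 mitochondrially encoded members took more counts than the 75 nuclear ones. They made up 1.81 and 1.84% of gene counts with EV and 2.30 and 2.31% with shEZH2. Shares of 1.92 and 1.86% were found with sgEV, 2.50 and 2.47% with guide 1 and 2.68 and 2.46% with guide 5. No treated MV4;11 library overlapped its controls. In EOL-1 the share was smaller, 0.929 and 0.899% with sgEV and 0.953 and 0.965% with sgEZH2, again without overlap. The nuclear members took 1.16 and 1.23% with EV and 1.16 and 1.18% with shEZH2, 0.921 and 0.928% with sgEV, 0.991 and 1.02% with guide 1 and 0.999 and 1.11% with guide 5, and in EOL-1 1.22 and 1.21% with sgEV and 1.19 and 1.23% with sgEZH2. Their share separated the guides from sgEV but overlapped in both EZH2 comparisons. Mitochondrial counts per nuclear member count were therefore 1.56 and 1.50 with EV against 1.97 and 1.95 with shEZH2, 2.08 and 2.01 with sgEV against 2.52 and 2.41 with guide 1 and 2.68 and 2.22 with guide 5, and 0.763 and 0.741 against 0.800 and 0.785 in EOL-1. Line, depth and table cannot be told apart in the comparison of levels between MV4;11 and EOL-1.

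**Figure D1:**
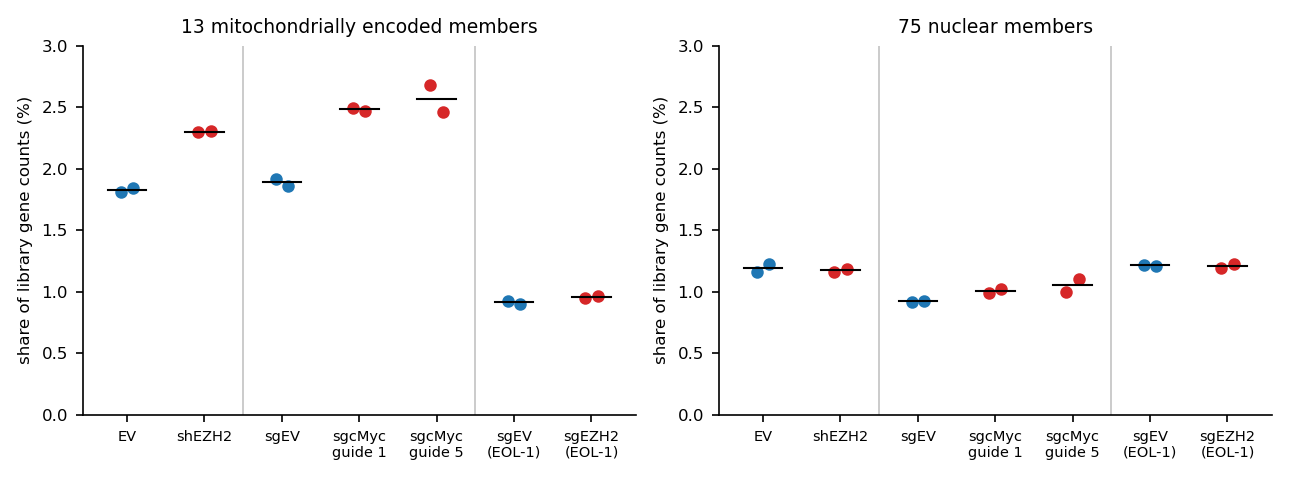
Share of each library's gene counts (percent, axes from 0) in the 13 mitochondrially encoded members (left) and the 75 nuclear members (right); each point is 1 library, each line a group mean, and blue points are controls. The mitochondrial share stands near 1.9% in the MV4;11 controls, above 2.2% in every treated MV4;11 library and under 1% in EOL-1, while the nuclear share stays between 0.9 and 1.3% throughout.

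Levels of different genes were compared per kilobase of transcript, with length taken from the longest principal transcript unless stated. On this scale, as a mean over the 14 libraries, 11 of the 13 mitochondrial members exceeded every nuclear one. With the median length over a gene's transcripts 8 did, since ATP5B then stood at 1231 CPM per kilobase, just above MT-ND1 at 1230.2. Most of these libraries are from MV4;11, and the order differed in EOL-1. There, with sgEV and the longest principal transcript, ATP5B stood at 624 CPM per kilobase. It lay above MT-ND2 at 592, MT-ND4 at 516, MT-ND4L at 391, MT-CYB at 364 and MT-ND1 at 325. Averaged over the 14 libraries, MT-CO1, the catalytic subunit of complex IV, stood highest at 3362 CPM per kilobase, before the other complex IV subunits MT-CO3 at 2766 and MT-CO2 at 2668. MT-ATP6 and MT-ATP8, parts of the proton channel and its anchor in complex V, reached 2324 and 2007. Cytochrome b, MT-CYB, had 973. The complex I subunits MT-ND5 and MT-ND6 were the lowest of the 13 at 440.2 and 418 CPM per kilobase; MT-ND6 alone among them is read from the other strand of the circle. Among nuclear members the highest were ATP5B, the catalytic subunit of the F1 head of complex V, at 573 CPM per kilobase, and COX4I1 of complex IV at 438, and ATP5B lay above MT-ND5 and MT-ND6. With the median length ATP5A1, the alpha subunit of the F1 head, at 899 stood above COX4I1 at 534. ATP5B and COX4I1 led their complexes under both definitions. The leader of the other complexes depended on that definition: NDUFA11 or NDUFB9 in complex I, SDHD or SDHC in complex II, and UQCRH or UQCRC2 in complex III. Mitochondrial genes have copies in the nuclear genome and many nuclear members have pseudogenes, so counting could split reads among them. Strand use is not stated, so overlapping genes (MT-ATP6 with MT-ATP8, MT-ND4 with MT-ND4L) and antisense reads at MT-ND6 cannot be separated.

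With shEZH2 in MV4;11, all 13 mitochondrially encoded members rose. Of the 13591 genes tested, 13.4% were called higher and 14.2% lower. The log2 fold changes of the 13 ran from 0.27 to 0.51 with a median of 0.39, beside a median of 0.0024 over all genes tested. In each of the 13, both shEZH2 libraries lay above both EV libraries, a separation seen in 32.1% of tested genes. The largest change was that of MT-ND5, a proton-pumping subunit of complex I, which had 779.9 and 712 CPM with EV and 1083 and 1049 CPM with shEZH2. Its log2 fold change was 0.51 ± 0.047, adjusted p = 1.4e-05. MT-CYB of complex III went from 1098 and 1136 CPM to 1538 and 1553 CPM, a log2 fold change of 0.47 ± 0.038, adjusted p = 6.2e-06. In both genes the 2 EV libraries lay below both shEZH2 libraries by far more than the libraries of a group differed.

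The 7 complex I subunits and MT-CYB had larger estimates than the subunits of complexes IV and V, a difference between genes that was not tested. MT-ND2 went from 1318 and 1375 CPM to 1862 and 1831 CPM (0.46 ± 0.039, adjusted p = 9.6e-06). Log2 fold changes were 0.44 for MT-ND4L, 0.43 for MT-ND6, 0.41 for MT-ND1, 0.39 for MT-ND4 and 0.38 for MT-ND3, all in the membrane arm of complex I. Complex IV changed by 0.33 for MT-CO1, 0.33 for MT-CO2 and 0.27 for MT-CO3, the smallest of the 13. MT-CO1 had 4922 and 4867 CPM with EV and 6137 and 6207 CPM with shEZH2, so that its groups were separate as well. Complex V changed by 0.31 for MT-ATP6 and 0.33 for MT-ATP8, and MT-ATP6 went from 1574 and 1675 CPM to 2018 and 2014 CPM. The mitochondrial ribosomal RNAs, which are no members, rose beside them, MT-RNR1 by 0.41 ± 0.040 and MT-RNR2 by 0.43 ± 0.040 on the log2 scale. So did 2 of 3 nuclear copies of mitochondrial genes with a row, MTND2P28 by 0.55 ± 0.049 and MTATP6P1 by 0.21 ± 0.040, and the share of reads exchanged between a gene and its copy was not tested.

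**Figure D2:**
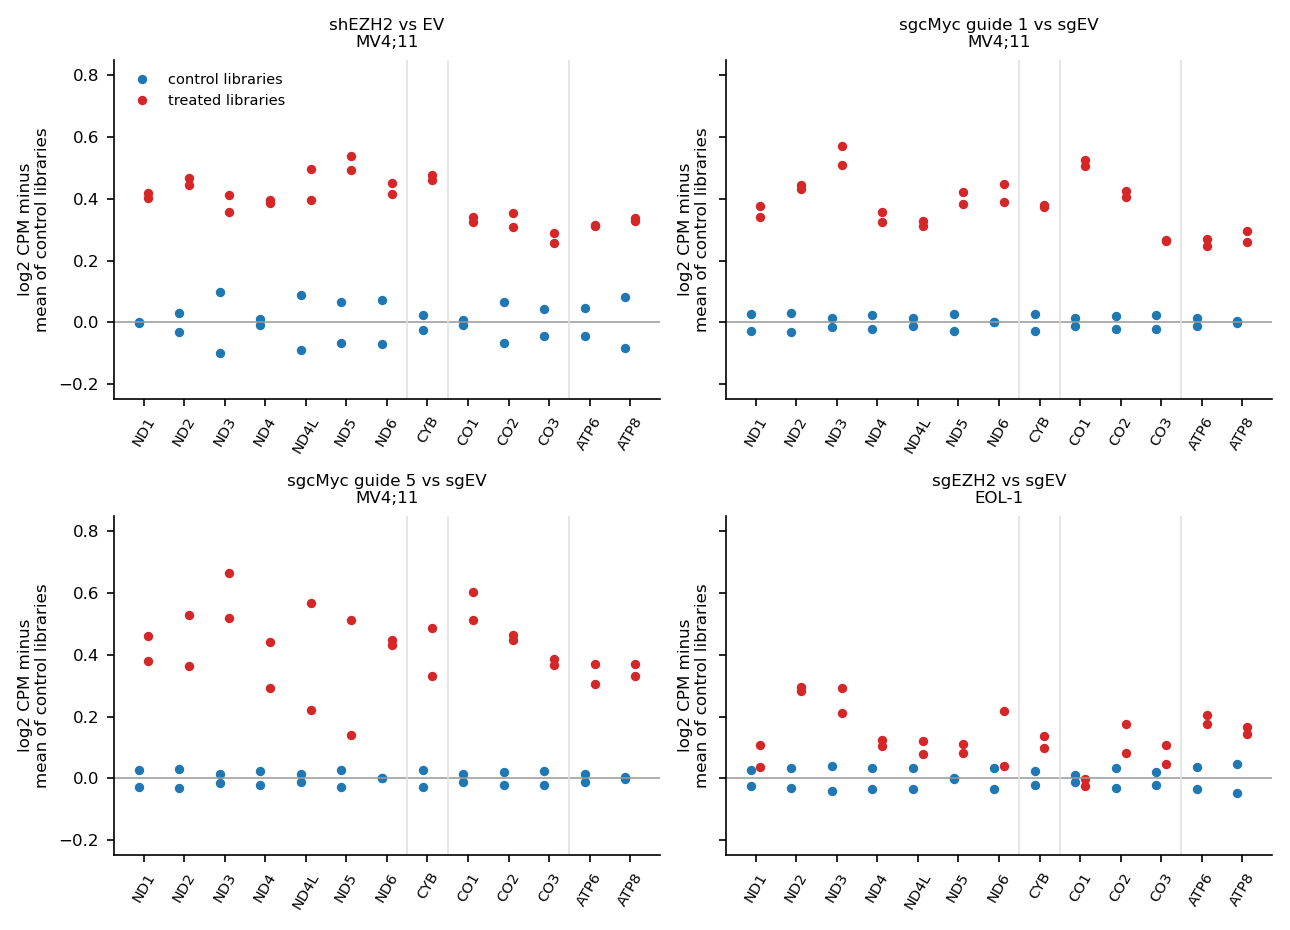
Log2 CPM of the 13 mitochondrially encoded members in each library, minus the mean of the 2 control libraries of that comparison, in 4 comparisons; blue points are control libraries, red points treated libraries, the gray line at 0 is the control mean, and vertical lines part complexes I, III, IV and V. Both treated libraries lie above both controls in all 13 members with shEZH2 and with each guide and in 12 in EOL-1, where MT-CO1 is the exception.

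The nuclear members did not share that change with shEZH2. Of the 75, 5 were called higher and 6 lower, 11 in all, beside 27.7% of all genes tested called in either direction, and their median log2 fold change was -0.021 against 0.0024 over all genes. By complex, the counts higher and lower were 1 and 2 of 36 in complex I, 0 and 0 of 4 in complex II, 0 and 1 of 8 in complex III, 1 and 2 of 12 in complex IV, and 3 and 1 of 15 in complex V. Both shEZH2 libraries lay above both EV libraries in 16 members and below in 21, beside 32.1% and 31.7% of tested genes.

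In complex V, ATP5G1, which encodes a protein of the rotating c-ring, had 79.0 and 84.0 CPM with EV and 98.4 and 101 CPM with shEZH2, a log2 fold change of 0.29 ± 0.053, adjusted p = 0.00191. ATP5F1, subunit b of the peripheral stalk, rose by 0.13 ± 0.041 and ATP5A1, the alpha subunit of the F1 head, by 0.11 ± 0.037. ATP5H, subunit d of the same stalk, went the other way, from 131 and 141 CPM to 112 and 121 CPM (-0.22 ± 0.056, adjusted p = 0.0139). Its groups did not overlap. In complex IV, NDUFA4 rose from 106 and 107 CPM to 120.2 and 122 CPM (0.18 ± 0.046, adjusted p = 0.0126), while COX5B, a subunit on the matrix side, fell from 156 and 159 CPM to 140.2 and 138 CPM (-0.18 ± 0.043, adjusted p = 0.0101). COX8A, another complex IV subunit, had a log2 fold change of -0.16 ± 0.048. In complex I the accessory subunit NDUFB10 rose by 0.16 ± 0.052, and the accessory subunit NDUFC1 at -0.21 ± 0.073 and the core iron-sulphur subunit NDUFS7 at -0.18 ± 0.057 were lower. UQCRC1, a core subunit of complex III, had -0.15 ± 0.042. These nuclear calls changed in number and direction with the library left out. The EV libraries differed from each other by a median of -0.11 on the log2 scale over nuclear members (library 1 minus library 2). DESeq2 called 2, both higher, and edgeR with spike-in scaling 1, lower. The share of all genes called in these other fits is not given, so their counts are not read as results about the members.

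With the guides labelled sgcMyc, members of both genomes rose. Guide 1 and guide 5 were each compared with the same 2 sgEV libraries, so the 2 comparisons are not independent and their values stand side by side. Of 13948 genes tested, 32.2% were called with guide 1 (16.2% higher) and 31.2% with guide 5 (15.7% higher). Of the 13 mitochondrially encoded members 12 were called higher with guide 1, with a median log2 fold change of 0.38, and 12 with guide 5, with a median of 0.41; none was called lower. The exception with guide 1 was MT-ND4L (0.32 ± 0.11, adjusted p = 0.0625) and with guide 5 MT-ND5 (0.34 ± 0.12, adjusted p = 0.0787). Both libraries of a guide lay above both sgEV libraries in all 13 with either guide, beside 34.8% of tested genes with guide 1 and 32.4% with guide 5.

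MT-CO1 had 4995 and 4906 CPM with sgEV, 7129 and 7027 CPM with guide 1 and 7526 and 7064 CPM with guide 5. Its log2 fold change was 0.52 ± 0.054, adjusted p = 1.4e-05, with guide 1, and 0.56 ± 0.054, adjusted p = 7.4e-06, with guide 5. MT-ND3, a complex I subunit next to the ubiquinone site, had the largest change of the 13 with each guide, going from 387 and 379 CPM to 544 and 568 CPM with guide 1 and 549 and 607 CPM with guide 5. These are log2 fold changes of 0.54 ± 0.054 and 0.59 ± 0.054. The control libraries of both genes lay close together and below every guide library.

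At the other end of the range, MT-ATP6 changed by 0.26 ± 0.048 with guide 1 and 0.34 ± 0.048 with guide 5, MT-ATP8 by 0.28 ± 0.044 and 0.35 ± 0.044, and MT-CO3 by 0.26 ± 0.048 and 0.38 ± 0.048. MT-CO2 changed by 0.42 and 0.45, MT-CYB by 0.38 and 0.41, and MT-ND6 by 0.42 and 0.44. The guide 5 libraries disagreed most in MT-ND5, which had 961 and 924 CPM with sgEV, 1263 and 1229 CPM with guide 1 and 1346 and 1038 CPM with guide 5. The second guide 5 library lay below both guide 1 libraries and the first above them. The ribosomal RNA MT-RNR2 rose by 0.32 ± 0.053 with guide 1 and 0.42 ± 0.053 with guide 5, and MT-RNR1 had 0.12 ± 0.049, adjusted p = 0.0808, with guide 1 and 0.32 ± 0.049 with guide 5.

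Among the 75 nuclear members, 35 were called higher and 2 lower with guide 1, and 46 higher and 2 lower with guide 5, where 16% and 15.5% of all genes were called lower. Their median log2 fold changes were 0.21 and 0.26, and those of all genes tested were -1.9e-06 and -0.00065. Both guide libraries lay above both sgEV libraries in 51 members with guide 1 and 53 with guide 5, beside 34.8% and 32.4% of tested genes. They lay below in 6 and 3, beside 34.6% and 32.7%. All 5 complexes held members that rose. The counts with guide 1 and guide 5 were 15 and 22 of 36 in complex I, 2 and 2 of 4 in complex II, 4 and 5 of 8 in complex III, 8 and 9 of 12 in complex IV and 6 and 8 of 15 in complex V. Median log2 fold changes by complex were 0.20 and 0.24 in complex I, 0.13 and 0.20 in complex II, 0.15 and 0.24 in complex III, 0.28 and 0.34 in complex IV, and 0.12 and 0.17 in complex V.

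**Figure D3:**
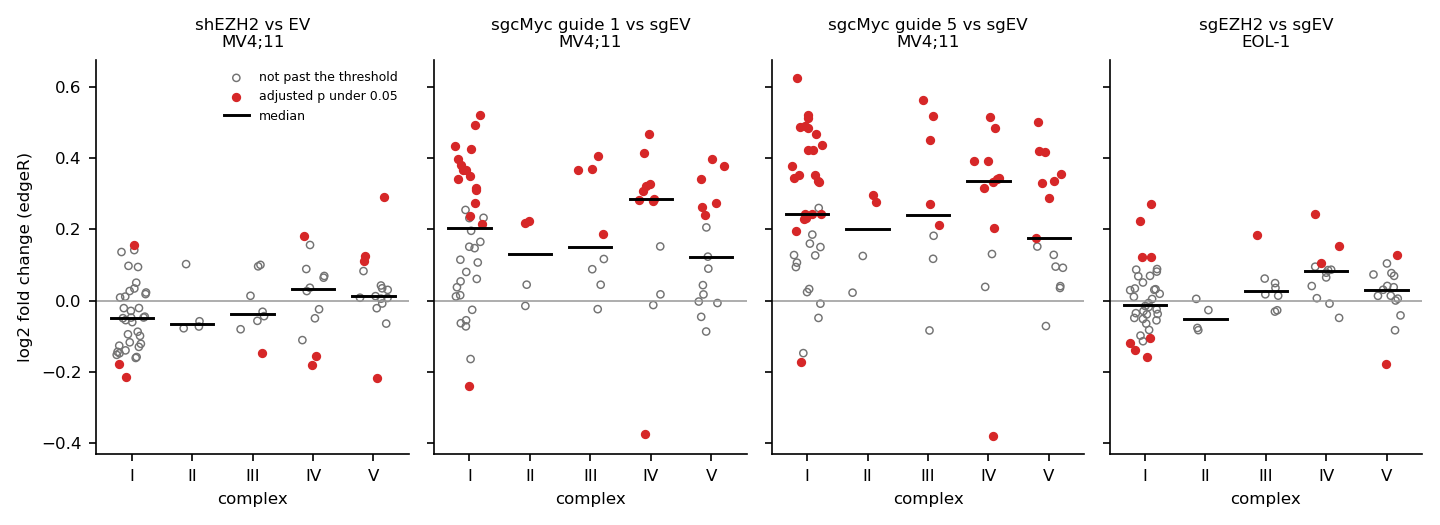
Log2 fold changes (edgeR) of the 75 nuclear members by complex in 4 comparisons; each point is 1 gene, filled red points passed the threshold, and the bars are medians of a complex. With guide 1 and guide 5 every complex has its median above 0 and 35 and 46 members are called higher, whereas with shEZH2 and in EOL-1 the points spread around 0.

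In complex I the members that rose were, but for NDUFS8 with guide 5, accessory subunits, which surround the catalytic core. NDUFS5 had 88.7 and 84.2 CPM with sgEV, 114 and 119 CPM with guide 1 and 112 and 127 CPM with guide 5 (log2 fold changes 0.43 ± 0.066, adjusted p = 2.9e-04 and 0.47 ± 0.066, adjusted p = 1.9e-04). NDUFA6 had 41.1 and 40.3 CPM, 54.9 and 61.7 CPM and 55.1 and 61.6 CPM, changes of 0.52 ± 0.079 and 0.52 ± 0.080. NDUFB1 reached 0.62 ± 0.098 with guide 5, from 24.1 and 23.7 CPM with sgEV to 33.1 and 40.6 CPM, the largest nuclear change with that guide. In all 3 genes the sgEV libraries lay below every guide library. NDUFB2 changed by 0.49 ± 0.082 with guide 1 and 0.51 ± 0.083 with guide 5. Of the 29 accessory subunits 15 were called higher with guide 1 and 21 with guide 5, and none lower. Of the 7 nuclear core subunits, which carry the flavin and the iron-sulphur clusters, none was called higher with guide 1 and only NDUFS8 with guide 5 (0.23 ± 0.067). This division was made after the values were seen and was not tested. NDUFS1, the largest core subunit, fell, from 132 and 127 CPM with sgEV to 110.2 and 109.7 CPM with guide 1 (-0.24 ± 0.056, adjusted p = 0.00601) and 121 and 109.9 CPM with guide 5 (-0.17 ± 0.056, adjusted p = 0.035).

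Complexes II, III and V were also divided after the values were seen, and none of these divisions was tested. In complex II the membrane anchor SDHD had 115 and 119 CPM with sgEV, 133 and 141 CPM with guide 1 and 139 and 149 CPM with guide 5, changes of 0.22 ± 0.056 and 0.30 ± 0.056. The other anchor, SDHC, changed by 0.22 ± 0.055 and 0.28 ± 0.055. The catalytic SDHA and the iron-sulphur subunit SDHB were not called with either guide, at 0.045 and -0.015 with guide 1 and 0.022 and 0.13 with guide 5. In complex III, UQCRQ, a small accessory subunit, had 48.3 and 49.9 CPM with sgEV, 60.8 and 69.1 CPM with guide 1 and 68.6 and 76.5 CPM with guide 5 (0.41 ± 0.078, adjusted p = 0.00172 and 0.56 ± 0.078, adjusted p = 1.6e-04). UQCR10 changed by 0.37 ± 0.064 and 0.45 ± 0.064, and UQCR11 by 0.37 ± 0.073 and 0.52 ± 0.073, both small accessory subunits. Of the 5 subunits outside the core and the Rieske protein, 4 were called higher with each guide and UQCRH was not. UQCRH had 164 and 174 CPM with sgEV, 170 and 178 CPM with guide 1 and 171 and 196 CPM with guide 5. Of the core subunits UQCRC1 and UQCRC2 and the Rieske iron-sulphur protein UQCRFS1, none was called with guide 1 and UQCRFS1 alone (0.27 ± 0.070) with guide 5. Median transcript length was 2615 bases over these 3 members and 916 bases over the 5 others. In complex II it went the other way, with 7502.5 bases over the anchors and 1771.5 over SDHA and SDHB. In complex I it was 1039 bases over the nuclear core and 844 over the accessory subunits. The part of length was not tested.

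Complex IV had the highest share of members called with each guide. NDUFA4 had 82.8 and 72.1 CPM with sgEV, 107 and 107 CPM with guide 1 and 103 and 114 CPM with guide 5 (log2 fold changes 0.47 ± 0.072, adjusted p = 3.3e-04 and 0.49 ± 0.072, adjusted p = 2.6e-04). COX6C changed by 0.41 ± 0.083 with guide 1 and 0.52 ± 0.083 with guide 5, COX6A1 by 0.33 ± 0.075 and 0.39 ± 0.075, and COX8A by 0.28 ± 0.064 and 0.31 ± 0.064, all subunits around the catalytic core. COX7A2L stood apart from them. It fell from 126 and 128 CPM with sgEV to 95.6 and 101 CPM with guide 1 (-0.37 ± 0.071, adjusted p = 0.00178) and 89.3 and 106 CPM with guide 5 (-0.38 ± 0.072, adjusted p = 0.00169), without overlap. In complex V, ATP5J, subunit F6 of the peripheral stalk, had 88.6 and 87.3 CPM with sgEV, 106 and 116 CPM with guide 1 and 116 and 119 CPM with guide 5, changes of 0.34 ± 0.057 and 0.42 ± 0.057. ATP5E, the epsilon subunit of the central stalk, changed by 0.40 ± 0.074 and 0.50 ± 0.074, and ATP5H by 0.38 ± 0.066 and 0.42 ± 0.066. ATP5B, the catalytic subunit of the F1 head, was not called, at -0.0067 ± 0.045, adjusted p = 0.931, with guide 1 and 0.035 ± 0.045, adjusted p = 0.598, with guide 5. Of the 5 members of the F1 head and central stalk, 1 was called higher with guide 1 (ATP5E). With guide 5 it was 2 (ATP5E and ATP5A1). Of the 10 other members of complex V, 5 were called higher with guide 1 and 6 with guide 5. With each guide, fewer nuclear members were called when 1 sgEV library was left out, and with guide 1 also when 1 of its own libraries was. The share of all genes called in those fits is not given.

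The promoters of nuclear members are known for sites of a few factors, among them NRF1, the ETS factor GABPA and YY1, and MYC binds E-boxes. RefSeq windows of 300 bases on GRCh38.p14, from 250 before to 50 after a transcription start, were found for 63 of the 75 nuclear members. Members without a matched window included ATP5B, ATP5D, ATP5G3, ATP5J2, COX6C, NDUFB5, NDUFB9, NDUFC2, NDUFS5, SDHC and UQCRB. Each motif was searched on both strands, and none of the motifs contains another. The NRF1 core GCGCATGC stood in 15 of the 76 member windows (19.7%) and in 3.05% of all 35116 windows. The ETS motif CCGGAAG stood in 21 (27.6%) beside 10.3% of all windows, and the YY1 motif AAGATGGC in 13 (17.1%) beside 2.89%. The E-box CACGTG stood in 7 (9.21%) beside 7.26% of all windows. By gene, of 37 matched members called higher with guide 5, 8 held the NRF1 core, 15 the ETS motif, 3 the YY1 motif and 2 the E-box. Of 24 matched members not called with guide 5, 6, 4, 9 and 5 did. These counts describe letters in windows and were not tested, and a match is not a bound site.

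The 200 bases before the start of 7 members are shown: in each complex the member called higher with guide 5 with the smallest p that holds a motif in this stretch, and the 2 members that fell. Capitals mark the NRF1 core, the ETS motif or the YY1 motif on either strand, and positions count back from the transcription start. NDUFA6 (chr22:42090773-42090972, minus strand) has an NRF1 core at -166:
NDUFA6: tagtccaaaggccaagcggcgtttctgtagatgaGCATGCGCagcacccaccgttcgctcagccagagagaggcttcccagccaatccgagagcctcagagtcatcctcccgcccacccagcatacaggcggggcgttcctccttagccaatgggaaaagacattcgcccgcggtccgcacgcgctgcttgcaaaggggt
SDHD (chr11:112086673-112086872, plus strand) has 2 overlapping NRF1 cores at -110 and -108 and an ETS motif at -77:
SDHD: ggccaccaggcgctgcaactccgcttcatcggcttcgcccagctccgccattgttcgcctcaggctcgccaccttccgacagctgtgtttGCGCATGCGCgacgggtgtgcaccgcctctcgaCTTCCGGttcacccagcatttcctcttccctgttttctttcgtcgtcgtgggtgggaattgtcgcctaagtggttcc
UQCRQ (chr5:132866442-132866641, plus strand) has an ETS motif at -54:
UQCRQ: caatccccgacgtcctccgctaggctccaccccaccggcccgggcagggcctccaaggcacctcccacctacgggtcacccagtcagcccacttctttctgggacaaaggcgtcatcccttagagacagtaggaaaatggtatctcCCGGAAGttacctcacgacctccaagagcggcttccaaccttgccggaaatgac
COX6A1 (chr12:120437913-120438112, plus strand) has an NRF1 core at -174 and an ETS motif at -16:
COX6A1: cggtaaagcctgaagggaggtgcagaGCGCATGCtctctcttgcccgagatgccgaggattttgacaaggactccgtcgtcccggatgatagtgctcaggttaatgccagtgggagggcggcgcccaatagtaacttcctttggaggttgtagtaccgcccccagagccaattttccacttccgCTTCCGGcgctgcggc
ATP5J (chr21:25735055-25735254, minus strand) has an NRF1 core at -120, a YY1 motif at -57 and an ETS motif at -30:
ATP5J: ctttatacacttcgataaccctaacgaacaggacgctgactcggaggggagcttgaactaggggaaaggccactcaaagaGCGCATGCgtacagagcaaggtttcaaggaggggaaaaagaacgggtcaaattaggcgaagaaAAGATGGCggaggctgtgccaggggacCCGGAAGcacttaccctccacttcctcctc
NDUFS1 (chr2:206159445-206159644, minus strand), which fell with each guide, has an ETS motif at -157:
NDUFS1: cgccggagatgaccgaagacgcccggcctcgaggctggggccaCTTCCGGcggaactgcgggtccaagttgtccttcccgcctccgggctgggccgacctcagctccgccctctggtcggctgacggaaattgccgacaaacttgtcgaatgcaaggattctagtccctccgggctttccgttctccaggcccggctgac
COX7A2L (chr2:42361218-42361417, minus strand), which also fell with each guide, has none of these motifs here:
COX7A2L: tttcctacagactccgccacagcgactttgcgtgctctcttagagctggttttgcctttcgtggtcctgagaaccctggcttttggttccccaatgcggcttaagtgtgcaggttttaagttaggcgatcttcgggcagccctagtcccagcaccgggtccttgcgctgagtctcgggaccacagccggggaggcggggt

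Change with the guides was also set against transcript length. With length taken from the longest principal transcript, available for 82.1% of tested genes, other genes of at most 1000 bases had a median log2 fold change of 0.096 with guide 1 and 0.14 with guide 5, those of 1000 to 2500 bases 0.025 and 0.045, and those above 4000 bases -0.023 and -0.045. The 35 nuclear members of at most 1000 bases had medians of 0.25 and 0.33, the 25 of 1000 to 2500 bases 0.15 and 0.24, the 7 of 2500 to 4000 bases 0.090 and 0.15, and the 8 above 4000 bases 0.15 and 0.19. In every class of length the members' median lay above that of the other genes with both guides. Under the other definition, the median over all transcripts of a gene, which puts 60 of the 75 nuclear members at or under 1000 bases, other genes of that length had medians of 0.013 and 0.026, and these 60 members 0.23 and 0.31. The mitochondrial members are short as well, and the part of length in either result was not tested.

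**Figure D4:**
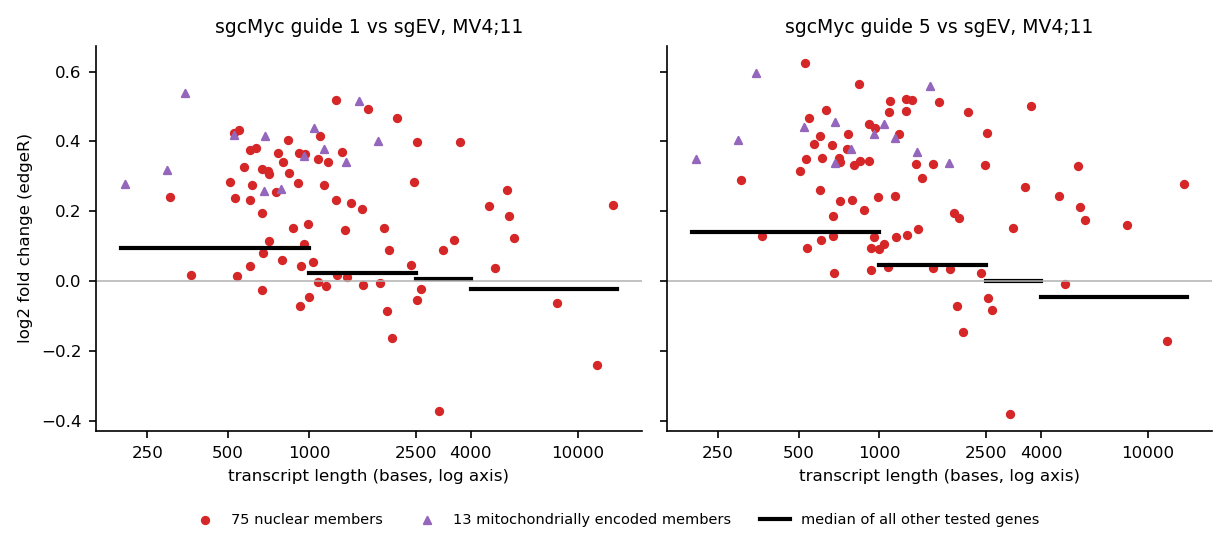
Log2 fold change (edgeR) with guide 1 (left) and guide 5 (right) against the length of the longest principal transcript in bases (log axis), for the 75 nuclear members (circles) and 13 mitochondrially encoded members (triangles); black bars are medians of all other tested genes by class of length. Other genes of at most 1000 bases have medians of 0.096 and 0.14, and most members of that length lie above them.

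Guide 5 and guide 1 were also compared directly. No member was called, mitochondrially encoded or nuclear, by edgeR, DESeq2 or limma, beside 0.409% of all genes called by edgeR; at an unadjusted p under 0.05, 1 mitochondrially encoded and 5 nuclear members passed, beside 8.6% of all genes. The median difference was 0.044 on the log2 scale over the 13 mitochondrially encoded members and 0.062 over the 75 nuclear ones. The largest differences were those of the accessory complex I subunits NDUFC1 (0.25 ± 0.10, adjusted p = 0.509) and NDUFA9 (0.22 ± 0.081, adjusted p = 0.428), and the lowest those of UQCRC2 (-0.060 ± 0.045) and NDUFS4 (-0.056 ± 0.078). The result depended on which guide 5 library was kept, since members were called when either was left out. The share of all genes called in those fits is not given, so this is not read as a result about the members. MT-ND5 took opposite signs, -0.26 without the first guide 5 library and 0.12 without the second, while with both it stood at -0.064 ± 0.12. These 2 libraries differed by a median of -0.21 on the log2 scale over nuclear members (first minus second), by 0.080 over mitochondrially encoded ones and by -0.18 over other genes of at most 1000 bases.

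In EOL-1, 8 mitochondrially encoded members rose with sgEZH2, MT-ND2 the most, and MT-CO1 was not among them. Of the 13890 genes tested, 26.9% were called, 15.1% higher and 11.8% lower. Of the 13 mitochondrially encoded members 8 were called higher and none lower, with a median log2 fold change of 0.12 beside 0.0051 over all genes. Both sgEZH2 libraries lay above both sgEV libraries in 12 of them, beside 32.2% of tested genes. MT-ND2 had 630.1 and 603 CPM with sgEV and 749.9 and 757 CPM with sgEZH2, the largest change (0.29 ± 0.032, adjusted p = 1.8e-06). MT-ND3 went from 365 and 345 CPM to 411 and 435 CPM (0.25 ± 0.036, adjusted p = 3.9e-05) and MT-ATP6 from 804 and 765 CPM to 885 and 903 CPM (0.19 ± 0.033, adjusted p = 3.0e-04). In these 3 genes the groups were separate. MT-ATP8, MT-CO2, MT-CYB, MT-ND4 and MT-ND5 were the other members called, with log2 fold changes of 0.10 to 0.15. MT-CO1 was not called: it had 2987 and 2936 CPM with sgEV and 2911 and 2954 CPM with sgEZH2, which overlapped (-0.014 ± 0.033, adjusted p = 0.805). Nor were MT-CO3 at 0.078 ± 0.033, MT-ND1 at 0.072 ± 0.034, MT-ND4L at 0.10 ± 0.039 and MT-ND6 at 0.13 ± 0.057. MT-CO1 made up 32.4 and 33.0% of the counts of the 13 with sgEV and 30.5 and 30.1% with sgEZH2. The ribosomal RNAs rose with larger estimates than any mitochondrially encoded member, MT-RNR1 by 0.46 ± 0.031 and MT-RNR2 by 0.38 ± 0.045. Fewer of the 13 were called when 1 sgEV library was left out, and the share of all genes called in those fits is not given.

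The 75 nuclear members in EOL-1 gave 9 calls higher and 5 lower, beside 15.1% and 11.8% of all genes tested. Their median log2 fold change was 0.014. Complex I held 4 of each among its 36, complex II none of 4, complex III 1 higher of 8, complex IV 3 higher of 12, and complex V 1 of each among 15. Both sgEZH2 libraries lay above both sgEV libraries in 25 members and below in 12, beside 32.2% and 29.9% of tested genes. NDUFB5, an accessory complex I subunit of the membrane arm, had 73.3 and 71.8 CPM with sgEV and 87.0 and 88.2 CPM with sgEZH2 (0.27 ± 0.041, adjusted p = 6.9e-05). NDUFA4 of complex IV went from 121 and 115 CPM to 135 and 145 CPM (0.24 ± 0.041, adjusted p = 2.4e-04), and UQCRB of complex III from 267 and 263 CPM to 295 and 308 CPM (0.18 ± 0.032, adjusted p = 3.4e-04). All 3 had separate groups. COX7A2 and COX7C of complex IV rose by 0.15 ± 0.038 and 0.10 ± 0.033, and in complex I NDUFS4 rose by 0.22 ± 0.061. ATP5I, subunit e in the membrane part of the ATP synthase, went from 94.9 and 93.3 CPM to 82.5 and 83.9 CPM (-0.18 ± 0.040, adjusted p = 0.00283). The core complex I subunits NDUFS1, NDUFV1, which binds NADH, and NDUFS7 were lower as well, at -0.16 ± 0.045, -0.12 ± 0.037 and -0.14 ± 0.046. ATP5F1 and NDUFA4 were called higher, and NDUFS7 lower, both with shEZH2 in MV4;11 and with sgEZH2 in EOL-1. DESeq2 called 6 nuclear members, 5 higher and 1 lower, and the number called also changed with the library left out. The share of all genes called in these other fits is not given.

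The difference between the 2 EZH2 comparisons was tested as an interaction in one edgeR fit of both tables, in which 26.5% of 13543 genes were called, 14.1% higher and 12.5% lower in EOL-1 relative to MV4;11. Line, hairpin against guide RNA, table and the size of the fall in EZH2 differ together and cannot be told apart. The EZH2 transcript changed by -2.94 ± 0.073 with shEZH2 and by -1.39 ± 0.051 in EOL-1. That is a difference of 1.54 ± 0.091, adjusted p = 9.1e-09. Of the 13 mitochondrially encoded members 10 had a smaller change in EOL-1 than in MV4;11 and none a larger one, and the median difference was -0.29 on the log2 scale beside -0.0050 over all genes. MT-ND5 differed most: the difference was -0.43 ± 0.058, adjusted p = 5.6e-05. MT-CO1 differed by -0.36 ± 0.047, adjusted p = 4.6e-05, and MT-CYB by -0.36 ± 0.048, adjusted p = 4.8e-05. MT-ND3 (-0.14 ± 0.088, adjusted p = 0.296), MT-ATP6 (-0.13 ± 0.053, adjusted p = 0.0859) and MT-ATP8 (-0.18 ± 0.068, adjusted p = 0.0638) did not pass. The ribosomal RNAs did not pass either, at 0.042 ± 0.048, adjusted p = 0.565, for MT-RNR1 and -0.059 ± 0.063, adjusted p = 0.539, for MT-RNR2. Fewer of the 13 were called without the first EOL-1 sgEV library or without the second shEZH2 library.

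Of the nuclear members 5 had a higher and 4 a lower change in EOL-1, and the median difference was 0.040. NDUFS4, an accessory subunit of the arm that binds NADH, had 35.8 and 38.3 CPM with EV and 31.1 and 36.0 CPM with shEZH2, and 41.1 and 39.2 CPM with sgEV and 43.6 and 50.2 CPM with sgEZH2. Its difference was 0.36 ± 0.11, adjusted p = 0.0332. NDUFB5 differed by 0.35 ± 0.062, adjusted p = 6.5e-04, COX5B by 0.26 ± 0.065, COX8A by 0.24 ± 0.063 and ATP5H by 0.21 ± 0.068. Lower in EOL-1 were NDUFA12 (-0.26 ± 0.087), NDUFS1 (-0.20 ± 0.068), SDHA (-0.19 ± 0.048) and ATP5G1 (-0.23 ± 0.064). The number of nuclear members called changed with the library left out.

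**Figure D5:**
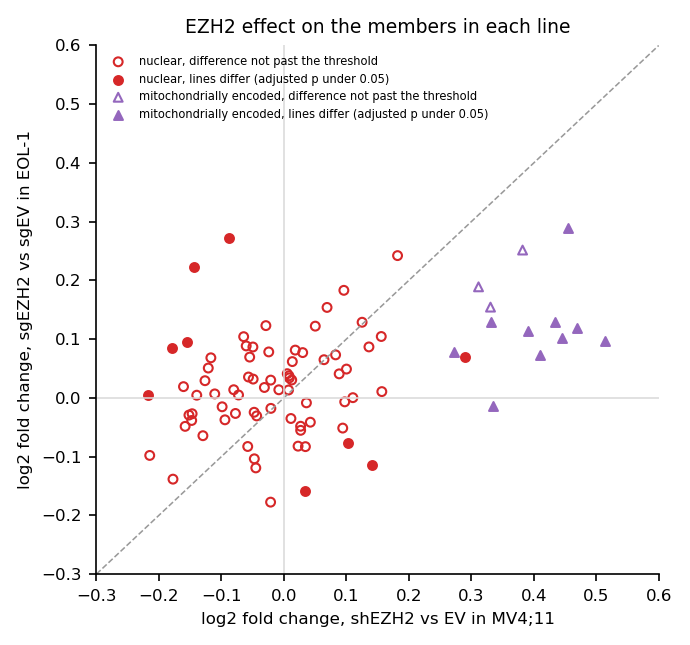
Log2 fold change (edgeR) with shEZH2 in MV4;11 (horizontal) against sgEZH2 in EOL-1 (vertical) for the 13 mitochondrially encoded and 75 nuclear members; filled points differ between the 2 comparisons by the interaction test, and the dashed line marks equal change. All 13 mitochondrially encoded members lie to the right, between 0.27 and 0.51 in MV4;11, and 10 of them are filled, while the nuclear members surround 0.

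Lists of other mitochondrial genes are given by their counts, beside 27.7% of all genes called with shEZH2, 32.2% with guide 1, 31.2% with guide 5 and 26.9% in EOL-1, in either direction. Nothing particular to a list is read from its count. Of the genes of mitochondrial DNA copying and transcription, 3 of 16 were called higher and 3 lower with shEZH2, 0 and 3 with guide 1, 1 and 0 with guide 5, and 0 and 3 of 15 in EOL-1. TFAM, which packs and starts transcription of the mitochondrial genome, rose by 0.16 ± 0.047 with shEZH2. SSBP1, which binds its single strands, rose by 0.18 ± 0.049 and C10orf2 by 0.26 ± 0.057. The 3 called lower with shEZH2 were PRIMPOL (-0.55 ± 0.10), MGME1 (-0.40 ± 0.079) and POLG (-0.20 ± 0.056). With guide 1, SSBP1 was lower (-0.19 ± 0.062). The mitochondrial RNA polymerase POLRMT was lower with guide 1 (-0.26 ± 0.058) and in EOL-1 (-0.14 ± 0.038). Of 20 genes of mitochondrial RNA processing and stability, 5 and 2 were called higher and lower with shEZH2, 4 and 5 with guide 1, 4 and 3 with guide 5, and 2 and 2 in EOL-1. LRPPRC and SLIRP form a complex that keeps mitochondrial messenger RNAs stable. LRPPRC was higher with shEZH2 (0.20 ± 0.039) and lower with guide 1 (-0.31 ± 0.044) and guide 5 (-0.32 ± 0.044), while SLIRP rose with guide 1 (0.28 ± 0.092) and guide 5 (0.42 ± 0.091). GRSF1, an RNA-binding protein of mitochondrial RNA granules, rose by 0.33 ± 0.042 with shEZH2. The 2 called lower with shEZH2 were FASTK (-0.29 ± 0.078) and PTCD1 (-0.34 ± 0.10).

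The same shares of all genes stand beside the counts of assembly factors. For complex I, 0 of 13 were called higher and 1 lower with shEZH2, 3 and 2 with guide 1, 3 and 4 with guide 5, and 1 and 1 in EOL-1; NDUFAF3 rose by 0.39 ± 0.066 and 0.45 ± 0.066 with guide 1 and guide 5, and NDUFAF2 was lower, at -0.45 ± 0.13 and -0.53 ± 0.13. For complexes II and III the counts of 10 were 2 and 0, 2 and 1, 2 and 0, and 1 and 0 in the same order, and for complex IV of 22 they were 2 and 2, 5 and 1, 7 and 1, and 3 and 0. COX14, which acts on newly made MT-CO1 protein, rose by 0.54 ± 0.085 and 0.57 ± 0.086 with the guides. Each comparison called 1 of 3 factors of complex V higher, ATPAF1 by 0.79 ± 0.064 with shEZH2, 0.34 ± 0.083 with guide 1 and 0.31 ± 0.083 with guide 5, and ATPAF2 by 0.18 ± 0.062 in EOL-1. Of 12 genes of ubiquinone synthesis 3 were higher and 2 lower with shEZH2, 1 higher with each guide (COQ2, 0.69 ± 0.073 and 0.71 ± 0.073) and none in EOL-1. Of 16 genes of the citric acid cycle, 1 and 2 were called higher and lower with shEZH2, 2 and 1 with each guide and 0 and 2 in EOL-1. Of 7 genes of or beside the complexes that were listed apart from the 88 members, 0 and 1, 2 and 1, 4 and 1, and 1 and 1 were called. Of 13 nuclear regulators of subunit genes, 2 and 2 were called with shEZH2, 2 and 1 with guide 1, 1 and 1 with guide 5, and 2 and 2 in EOL-1. MYC was among those called higher, with shEZH2 (0.25 ± 0.037) and with each guide.

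Most of the 18 other rows were pseudogenes or antisense RNAs by their symbols. Of the 14 with a row in the MV4;11 tables, 13 passed the filter in the shEZH2 table and 9 in the sgcMyc table, and 12 of 18 passed in EOL-1; ATP5A1P7, ATP5C1P1, ATP5HP4 and the read-through NDUFC2-KCTD14 had a row in EOL-1 alone. NDUFA4L2, a paralog of NDUFA4 known as a hypoxia-induced protein, was the row with the largest change. It had 10.6 and 9.59 CPM with sgEV, 2.48 and 1.87 CPM with guide 1 (-2.21 ± 0.23, adjusted p = 1.4e-05) and 2.06 and 1.08 CPM with guide 5 (-2.67 ± 0.25, adjusted p = 4.8e-06). With shEZH2 it went from 4.93 and 5.29 CPM to 3.48 and 3.27 CPM (-0.60 ± 0.18, adjusted p = 0.0279), and in EOL-1 from 1.02 and 0.819 CPM to 0.523 and 0.413 CPM, which did not pass (-0.96 ± 0.39, adjusted p = 0.0774). It was lower in both libraries of each treated group than in both controls, whereas NDUFA4 itself was called higher in all 4 comparisons. The pseudogene row UQCRFS1P1 rose by 0.37 ± 0.074 with guide 1 and 0.60 ± 0.073 with guide 5, and counting could split its reads with UQCRFS1. The pseudogene row NDUFA5P11, at very low counts, passed the interaction test (3.03 ± 1.06, adjusted p = 0.0472).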

How the data were processed

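RNA-seq of 14 libraries in 7 groups of 2 was analysed from 3 tables, 1 per control design; samples were grouped by title, the shorter column names were matched to them by inference, and none was unassigned. The authors deposited estimated counts per gene (expected counts) and normalised log2 values of unstated method; RSEM, DESeq and hg19 are listed in the submitters' processing notes without a role, and for versions, annotation, strand use and RNA selection no source used here says more. The authors' deposited mean signal per gene (baseMean) was not used. Counts were rounded, filtered with filterByExpr and scaled by TMM. The quasi-likelihood test of edgeR 4.0.16 (robust, R 4.3.3), with Benjamini-Hochberg adjustment over all genes and a threshold of 0.05, was run per table, and the difference between lines as an interaction over both tables; the code was tested on simulated data. Members and lists were chosen with earlier results of these data known. Named were the targets, the mitochondrially encoded members, up to 3 nuclear members per complex and direction by p, those of largest change, and those highest per length. Subunit groupings and NDUFA4L2 and UQCRFS1P1 were singled out after their values were seen. Transcript lengths came from GENCODE 29, first as the median over transcripts and then, after results were seen, as the longest principal transcript. Alternatives used DESeq2 1.42.0, limma 3.58.1 on the log2 values, other filters and scalings, a replicate block and left-out libraries. Gene counts were 13313052 to 30256823 per library.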

Additional observations from a re-analysis of the deposited data

Results flagged for a closer look

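The 2 EZH2 comparisons differed, by the edgeR interaction test, in 10 of 13 mitochondrially encoded members, all with a smaller change in EOL-1. They differed in 9 of 75 nuclear members, 5 with a higher and 4 with a lower change in EOL-1. Of all genes tested 26.5% were called, 14.1% higher and 12.5% lower in EOL-1. Line, hairpin against guide RNA, table and the size of the fall in EZH2 cannot be told apart here. On the log2 scale (EOL-1 minus MV4;11) the differences of complex I were -0.35 for MT-ND1, -0.17 for MT-ND2, -0.29 for MT-ND4, -0.35 for MT-ND4L, -0.43 for MT-ND5 and -0.31 for MT-ND6. They were -0.36 for MT-CYB of complex III, and -0.36, -0.21 and -0.20 for MT-CO1, MT-CO2 and MT-CO3 of complex IV. Higher in EOL-1 were NDUFS4 by 0.36, NDUFB5 by 0.35, COX5B by 0.26, COX8A by 0.24 and ATP5H by 0.21. Lower were NDUFA12 at -0.26, ATP5G1 at -0.23, NDUFS1 at -0.20 and SDHA at -0.19.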

How the results depend on the processing

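All 13 mitochondrially encoded members were called higher with shEZH2 under every alternative, and 11 to 13 were with each guide. Their median log2 fold change ranged over the alternatives from 0.34 to 0.41 with shEZH2, 0.35 to 0.46 with guide 1, 0.36 to 0.56 with guide 5 and 0.09 to 0.15 in EOL-1. Scaling to spike-in RNA was run in the MV4;11 tables alone. Under it the median of all genes stood at 0.083 with guide 1, 0.15 with guide 5 and -0.044 with shEZH2. Changes under this scaling should be read against these medians. The share of all genes called under the alternatives is not given, so no count of calls under them is read as a result about the members. The 11 nuclear calls with shEZH2 became 1 under spike-in scaling and 2 with DESeq2. Limma run on the deposited log2 columns gave 7 and a replicate block 21. The number also changed when 1 library was left out. None of the 11 was kept under every alternative, and causes were not tested. Nuclear calls in EOL-1 fell from 14 to 6 with DESeq2 and ranged from 5 to 22 without 1 library, and mitochondrial ones from 2 to 10 around 8. Nuclear calls ranged without 1 library from 15 to 27 around 37 with guide 1 and from 26 to 67 around 48 with guide 5. For guide 5 against guide 1 they ranged from 0 to 6 (mitochondrial) and 0 to 35 (nuclear) around 0, and MT-ND5 changed sign there, to 0.12, without the second guide 5 library, and was called at -0.26 without the first. The difference between lines gave 6 to 13 mitochondrial calls around 10 and 4 to 19 nuclear calls around 9. Replicate numbers were not shown to pair libraries: deviations of same-numbered libraries correlated at 0.17 (shEZH2 table), -0.045, -0.011 and 0.29 (sgcMyc table) and -0.25 (EOL-1). With the replicate number as a block, 13, 13, 13, 9 and 11 mitochondrial and 21, 45, 52, 14 and 11 nuclear members were called with shEZH2, guide 1, guide 5, in EOL-1 and for the difference between lines. A crossed block in EOL-1, added after seeing the data, called 8 and 14. Limma was not run for the difference between lines. With 1 library left in a group, its spread was assumed to be that of the other groups.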
